A study of Mus musculus with 6 samples.

Results

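The segments described here are the pieces of the T-cell receptor (TCR) beta and gamma genes. They were chosen by their annotation, as rows of the deposited gene table with a TR biotype and a symbol starting with Trb, Trg or Tcrg, and came to 68 of 54532 genes. Of these, 53 lie in the beta locus on chromosome 6, with 35 V, 2 D, 14 J and 2 C segments. The other 15 lie in the gamma locus on chromosome 13, with 7 V, 4 J and 4 C segments. The annotation gives 13 of the beta V segments and 1 of the beta J segments as pseudogenes.

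RNA was sequenced from bone marrow (BM) cells of C57BL/6 mice at day 100 after transplantation, in 3 libraries labelled Phf6 wild type (WT 1 to WT 3) and 3 labelled Phf6 knockout (KO 1 to KO 3). Every donor cell graft, WT or KO, was made with JAK3 M511I, a mutant Janus kinase with raised activity, as a mouse model of T-ALL, an acute leukemia of T-cell precursors. In the study's methods, the mutant was delivered to lineage-negative BM cells by a retrovirus that also carries GFP, donors and recipients were male, and the recipients were irradiated. Phf6 was deleted in blood cells by Cre, which the study's text gives as Vav1-Cre for the KO cells it profiled, and the labels do not say whether GFP+ cells were sorted before RNA extraction, or whether the 3 libraries of a group came from separate mice. The p-values therefore measure the spread between these libraries only. The genotype labels carry the symbol Phf6, Phf7 or Phf8 in turn within each group, and all were read as Phf6, the gene that the series describes.

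Each TCR chain is assembled during thymic development, when the RAG recombinase joins a V segment to a J segment, with a D segment between them in beta and none in gamma, and splicing then adds the C segment. In the beta locus a long row of V segments is followed by a pair of D-J-C clusters, and the last V segment, Trbv31, lies beyond the clusters on the opposite strand. Joining deletes or inverts the DNA between the chosen segments, and unjoined segments can also be transcribed, so a count of reads per segment does not separate rearranged from germline transcripts. The gamma locus holds 4 clusters, each with its own J and C segment and with its own V segments nearby.

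The number of reads per gene was recovered from the deposited FPKM (fragments normalized to gene length and library size), and came to between 13015823 and 18235095 per library. A segment with no reads in a library could have had up to between 0.165 and 0.230 RPM (reads per 1000000 reads of the library), at a limit of 3 reads, and limits and intervals cover counting error only. The FPKM of Phf6 itself was 7.47, 3.67 and 8.02 in WT 1 to WT 3 and 6.73, 5.50 and 5.11 in KO 1 to KO 3, so the level of this gene did not separate the groups (log2 difference −0.07, adjusted p = 0.893 by limma), and the groups are called by their labels. In the study's methods Cre removes only some exons of Phf6, and a level over the whole gene does not measure those exons alone. The study also assayed Phf6 RNA and protein in its WT and KO leukemia cells. WT 2 stood apart: 17.1% of its reads fell in genes under 1000 bases, against 3.11% to 5.01% elsewhere, and its summed erythroid markers were at 58622 FPKM, against 9.26 to 467 in the other libraries. In WT 2 there were 4.52 V reads per 100 C reads in the beta locus and 0.99 in the gamma locus, against 35.1 to 49.9 and 34.2 to 43.5 elsewhere. Results are therefore also given without WT 2. The summed markers of T cells, with all 10 genes tested, ran from 1254 to 2668 FPKM in WT and from 1180 to 1439 in KO libraries. That sum holds opposite changes. Cd4 was called higher in KO by limma (log2 fold change 4.67) and Cd5 lower (−1.76), 1 of the 10 each way. The shares called among all tested genes were 13.1% and 13.3%. The 7 neutrophil markers ran from 6332 to 89144 FPKM in WT and from 89.2 to 267 in KO libraries, and all 7 were lower in KO by limma. So were 3 of the 5 monocyte and macrophage markers and 4 of the 5 NK cell markers tested, with 1 NK marker higher (Gzma). The summed B-cell markers were at 985 FPKM in WT 2, at 11.3 and 17.2 in WT 1 and WT 3, and at most 1.11 in KO libraries. In such bulk samples, fewer cells of a type and less RNA per cell cannot be told apart, and the part of these other cells in the segment results was not tested.

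In the KO libraries 9 of the 13 tested gamma segments rose and 20 of the 39 tested beta segments fell. Genes with at least 1 FPKM in at least 3 libraries were compared on log2(FPKM + 1) by limma, with Benjamini-Hochberg adjustment over all 13393 genes tested and a threshold of 0.05. That scale understates the change of low genes. Of the 68 segments, 8 had no reads in any library, and with those included 24 had none in the KO libraries and 11 none in the WT libraries. The filter left 52 of them; 14 were higher in KO, 20 were lower and 18 did not pass the threshold. Over all genes tested, 13.1% were called higher and 13.3% lower, and 26.4% in either direction. In the gamma locus 13 segments were tested, of which 9 were higher and 0 lower by limma, 0 lower at an unadjusted p under 0.05 and 0 lower by voom on the recovered reads. In the beta locus 39 segments were tested, of which 5 were higher and 20 lower. The median log2 fold change, KO over WT, was 2.87 in the gamma locus, −2.88 in the beta locus and 0.09 over all genes. With segments at 0 throughout a group set to the limit of 3 reads per library, the medians were 2.87 and −1.86. These medians mix limits in RPM with limma log2 fold changes of the other segments, so −1.86 is not on the same scale as −2.88. The 3 KO libraries lay wholly above the 3 WT libraries for 12 of the 13 gamma segments tested, against 26.2% of all genes, and wholly below them for 20 of the 39 beta segments, against 22.9% of all genes. A segment below 1 FPKM throughout a group passes the filter only through the other group, so its side was fixed in advance. Tcrg-V7, Tcrg-V3, Trgj3, Tcrg-C3, Trbv18, Trbv21 and Trbv22 passed only through KO. The V segments that passed only through WT were Trbv1, Trbv2, Trbv3, Trbv12-1, Trbv13-1, Trbv13-3, Trbv26 and Trbv29. So did Trbd1, Trbd2, Trbj1-1, Trbj1-6, Trbj2-1 and Trbj2-2. The same limit holds for the calls of these segments wherever they are named below. These counts are therefore a description.

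Summed over a class of segments, the groups lay apart for gamma V, J and C and overlapped for beta V, J and C. Gamma C reads were at 83.7, 111 and 169 RPM in WT 1 to WT 3 and at 595, 661 and 1045 RPM in KO 1 to KO 3, so every KO library lay above every WT library. The group means were 121 ± 43.4 and 767 ± 243 RPM (SD, n = 3), which is 6.33-fold, and 6.08-fold without WT 2. Gamma V reads were at 30.1 ± 29.7 RPM in WT and 327 ± 112 RPM in KO (10.9-fold, and 7.34-fold without WT 2). Both gave p = 0.1 in a two-sided exact permutation test, the smallest that 3 against 3 libraries allow, and 0.175 after adjustment over the 7 classes. Beta D reads were absent from KO and at least 4.53-fold lower than in WT, and gamma J reads were at 4.27 ± 4.30 RPM in WT and 21.8 ± 5.95 RPM in KO (5.11-fold). Beta C reads were at 553 ± 254 RPM in WT and 516 ± 132 RPM in KO (exact permutation p = 1). Beta V reads were at 117 ± 68.8 and 214 ± 91.4 RPM (exact permutation p = 0.3), and beta J reads at 42.7 ± 34.8 and 21.7 ± 7.76 RPM (exact permutation p = 0.9).

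**Figure D1:**
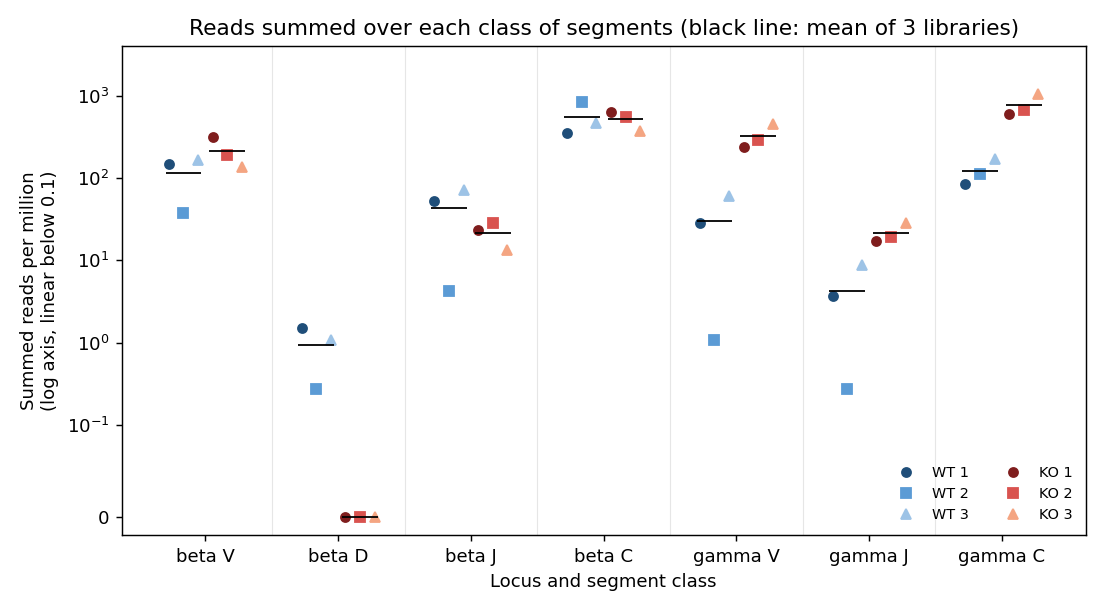
RPM summed over each class of segments (vertical axis, logarithmic above 0.1 and linear below) for the beta and gamma loci, with one point per library and a black line at the mean of 3 libraries. The gamma V, J and C points of the KO libraries lie above all WT points, the beta D points of the KO libraries lie at 0, and the beta V, J and C points overlap.

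The WT libraries spread their beta V reads along the whole row of segments, and the KO libraries did not. Reads were seen for 24, 21 and 23 of the 35 beta V segments in WT 1 to WT 3 and for 17, 14 and 20 in KO 1 to KO 3. The segment with most beta V reads was Trbv16 in every WT library, with 13.1%, 15.2% and 12.7% of them. In every KO library it was Trbv24, with 36.7%, 90.5% and 83.4% (95% Wilson intervals 35.4% to 38.1%, 89.3% to 91.6% and 81.6% to 85.0%). The effective number of V segments, the inverse of the summed squared shares, was 14.4, 13.9 and 14.5 in WT and 4.51, 1.22 and 1.43 in KO libraries. Shared use between libraries, the sum over segments of the smaller share, was 87.6% to 93.4% between WT libraries, 44.4% to 92.7% between KO libraries and 5.58% to 35.7% between a WT and a KO library. The profiles of KO 2 and KO 3 were thus close to each other, and KO 1 stood apart from both.

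**Figure D2:**
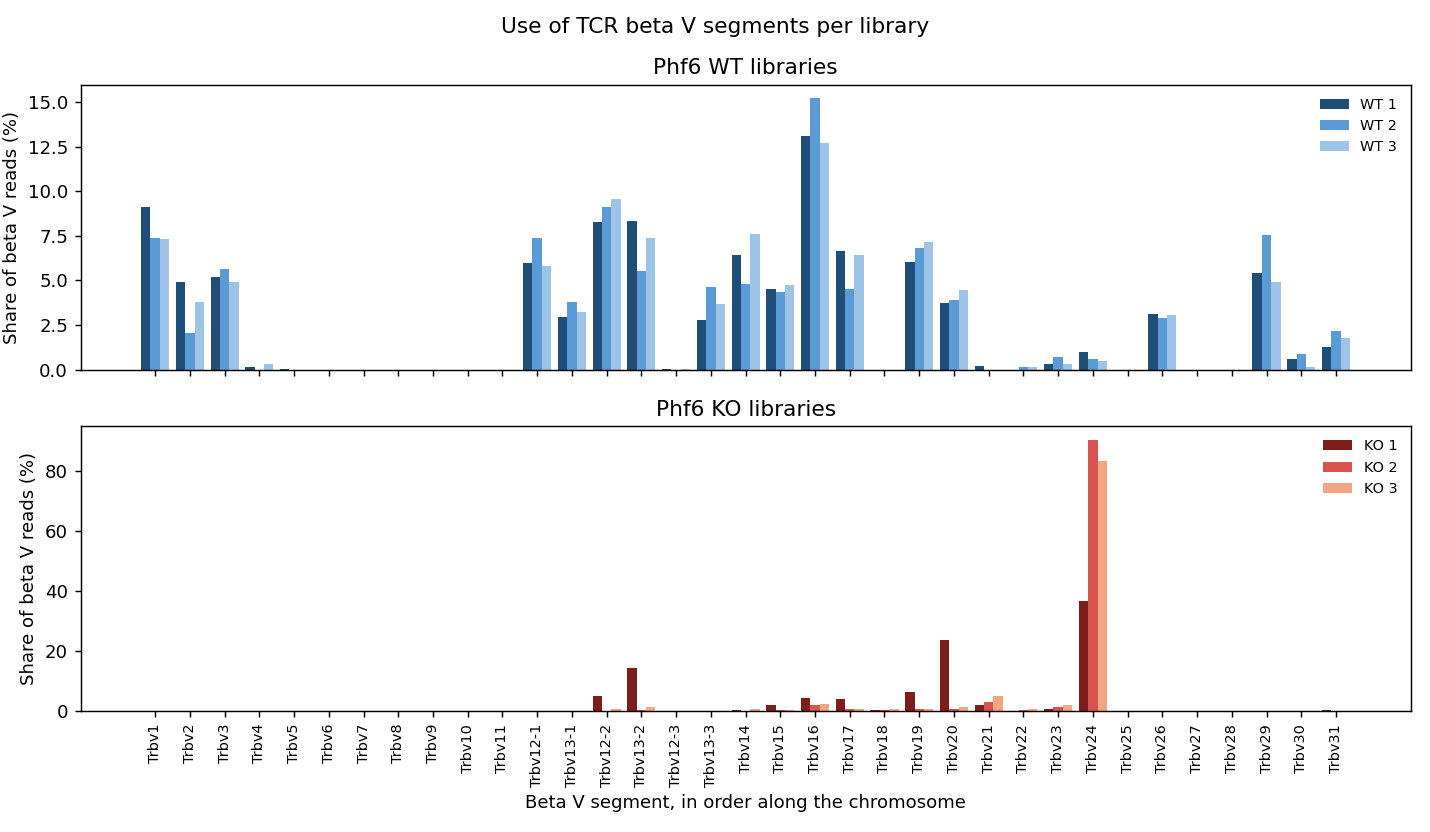
Share of beta V reads (%) taken by each of the 35 V segments, in their order along the chromosome, with the WT libraries above and the KO libraries below on separate vertical scales. Bars of one shade belong to one library. WT reads are spread over the row with the tallest bars at Trbv16, and KO reads stand at Trbv24, which holds 36.7% in KO 1, 90.5% in KO 2 and 83.4% in KO 3.

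Trbv24 (ENSMUSG00000102955) is annotated as a V pseudogene at chr6:41218091-41218557 on the plus strand (GRCm38). The last 200 bases of its spliced sequence in the GENCODE vM21 annotation are shown because it held most of the beta V reads in KO 2 and KO 3 and the largest share in KO 1. Capitals run from the last TGTGC, searched on the given strand, which holds the conserved cysteine codon of a working V segment and the start of the next codon.
Trbv24: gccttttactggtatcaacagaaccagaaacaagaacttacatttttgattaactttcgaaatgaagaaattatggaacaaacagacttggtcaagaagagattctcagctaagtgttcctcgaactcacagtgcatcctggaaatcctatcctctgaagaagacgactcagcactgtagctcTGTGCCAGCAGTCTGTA
The letters TGTGC occur in the last 40 bases of 26 of the 35 beta V segments (74.3%), so Trbv24 is not set apart by them. Trbv24 had 22, 4 and 12 reads in WT 1 to WT 3 and 1849, 2267 and 1577 reads in KO 1 to KO 3. As FPKM this was 4.11, 0.98 and 2.23 against 286, 415 and 282, with every KO library above every WT library. The log2 fold change was 6.66 ± 0.40 (SE, adjusted p = 0.000271 by limma, and at most 0.00461 under every alternative).

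The 4 segments from Trbv21 to Trbv24 rose together, and so did the pseudogene Trbv18, which lies upstream of them. Trbv21 had 4, 0 and 0 reads in WT and 98, 73 and 95 in KO (log2 fold change 3.63 ± 0.29, SE). Trbv23 had 7, 5 and 7 reads in WT and 31, 30 and 36 in KO (1.52 ± 0.22). The low pseudogene Trbv22 had 0, 1 and 3 against 9, 10 and 10 reads (1.21 ± 0.24), and its call was lost without KO 2 (adjusted p = 0.0518 by limma) and by voom (0.0623). Trbv18 had no reads in WT and 10, 9 and 10 in KO, which is at least 3.60-fold higher, with 3 reads per WT library as the upper limit. These 5 are the beta segments called higher. Of them, Trbv18, Trbv21 and Trbv22 passed the filter only through KO, so their side was fixed in advance. Summed over Trbv21 to Trbv24, there were 33, 10 and 22 reads in WT and 1987, 2380 and 1718 in KO libraries. The ends of this stretch, and of the other beta stretches summed below, were set after the values were seen. Such sums are a description.

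The V segments at the far upstream end of the row, and those just downstream of Trbv24, were at or near 0 in the KO libraries. From Trbv1 to Trbv13-1, the far end of the row, 13 segments had 641, 181 and 612 reads in WT 1 to WT 3 and 5, 1 and 6 in KO 1 to KO 3. Of these, Trbv1 was at 207, 51 and 176 against 2, 0 and 2 reads, Trbv12-1 at 135, 51 and 140 against 0, 0 and 2, and Trbv13-1 at 67, 26 and 78 against 3, 1 and 1. Their log2 fold changes were −4.23, −4.12 and −3.13. All 3 passed the filter only through WT, so the side of these calls was fixed in advance. Trbv2 and Trbv3 had no KO reads, against 111, 14 and 91 and 117, 39 and 119 reads in WT, and were at least 22.4-fold and 28.3-fold lower. On the other side, Trbv26, Trbv29 and Trbv30 had 205, 78 and 196 reads together in WT and 0, 0 and 3 in KO, with all 3 KO reads in Trbv29. Trbv26 was at least 16.9-fold lower, and Trbv29 fell by 4.06 on the log2 scale (adjusted p = 0.000524 by limma). Both also passed only through WT. Trbv30, with 13, 6 and 4 WT reads, did not pass the filter.

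Between these stretches, the 11 segments from Trbv12-2 to Trbv20 varied more among the KO libraries than between the groups. They summed to 1354, 406 and 1536 reads in WT and to 3025, 124 and 164 reads in KO libraries, so KO 1 was above and KO 2 and KO 3 were below all of the WT libraries. Trbv20 had 85, 27 and 107 reads in WT and 1186, 21 and 24 in KO. Trbv13-2 had 188, 38 and 178 in WT and 715, 5 and 28 in KO. In KO 1 these 2 segments took 23.6% and 14.2% of the beta V reads, against 0.84% and 0.20% in KO 2. Neither passed the test (log2 fold changes 0.27 and −1.11, adjusted p = 0.911 and 0.626 by limma), and the value for Trbv20 was −1.46 without KO 1 and −0.17 without WT 2. Trbv12-2 had 187, 63 and 231 reads in WT and 260, 0 and 11 in KO. It passed as lower only when KO 1 was left out (log2 fold change −4.01, adjusted p = 0.0175 by limma). Trbv16, at 296, 105 and 306 against 222, 47 and 47 reads, likewise passed without KO 1 (−2.20) or without WT 2 (−1.94).

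Within that middle stretch Trbv13-3 and Trbv14 did fall. Trbv13-3 had 63, 32 and 88 reads in WT and 1, 0 and 2 in KO (fell by 3.45 on the log2 scale, adjusted p = 0.000768 by limma). It passed the filter only through WT. Trbv14 had 145, 33 and 183 against 17, 1 and 11 reads and fell by 3.11, a call lost without KO 2 (adjusted p = 0.0530) and after rescaling to TPM (0.0942). Trbv31, beyond the D-J-C clusters, had 29, 15 and 43 reads in WT and 15, 1 and 1 in KO. It fell by 1.82 on the log2 scale (adjusted p = 0.0268 by limma), and the call was lost on leaving out WT 1, WT 3, KO 2 or KO 3 (adjusted p from 0.0704 to 0.112), without the filter (0.0649) and after rescaling to TPM (0.141). As shares of beta V reads, Trbv1 to Trbv12-1 held 23.3 ± 1.77% in WT and 0.10 ± 0.14% in KO (SD, n = 3), and Trbv20 to Trbv30 held 14.8 ± 1.65% and 83.7 ± 18.0%. For both shares the groups did not overlap (exact permutation p = 0.1, adjusted 0.15 over the shares tested).

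The D-J-C clusters divided the groups at a point inside the second J row. In the first cluster, Trbd1, Trbj1-1 to Trbj1-7 and Trbc1 had 2649, 7692 and 3679 reads in WT and 6, 2 and 30 in KO libraries. In the second cluster, Trbd2, Trbj2-1 and Trbj2-2 had 53, 25 and 78 reads in WT and none in KO, whereas Trbj2-3 to Trbj2-7 had 190, 22 and 257 reads in WT and 371, 371 and 179 in KO. The D segments and the J row of the second cluster are shown from the GENCODE vM21 annotation on the plus strand, because the change from no reads to many lies within it. Capitals mark the motif TTNGGNNNNGGN, the letters for the conserved phenylalanine and glycines of a working J segment, searched on the given strand.
Trbd1: gggacagggggc
Trbd2: gggactgggggggc
Trbj2-1: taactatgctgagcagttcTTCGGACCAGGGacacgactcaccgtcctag
Trbj2-2: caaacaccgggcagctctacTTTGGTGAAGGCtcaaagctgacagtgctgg
Trbj2-3: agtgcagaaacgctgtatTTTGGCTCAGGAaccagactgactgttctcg
Trbj2-4: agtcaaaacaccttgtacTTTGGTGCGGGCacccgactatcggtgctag
Trbj2-5: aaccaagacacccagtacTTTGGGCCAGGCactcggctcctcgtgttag
Trbj2-6: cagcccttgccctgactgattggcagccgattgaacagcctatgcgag
Trbj2-7: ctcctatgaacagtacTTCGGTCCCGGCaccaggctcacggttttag
The motif occurs in 11 of the 14 beta J segments (78.6%) and not in Trbj1-6, Trbj1-7 or the pseudogene Trbj2-6. Segments with and without it lie on both sides of the change, so presence of the motif did not follow it.

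Both D segments fell, and both passed the filter only through WT. Trbd1, at chr6:41533201-41533212, had 19, 2 and 14 reads in WT and none in KO, at least 3.64-fold lower. Trbd2, at chr6:41542163-41542176, had 4, 3 and 2 reads in WT and none in KO, and its WT reads were too close to the limit of 3 reads for a fold. Reads over such short segments are few, and FPKM turns them into large values (103 FPKM for the 19 reads of Trbd1 in WT 1).

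Of the 13 beta J segments tested, 7 fell and 0 rose by limma, with 1 higher at an unadjusted p under 0.05 and 0 by voom. Over all genes tested, 13.3% were called lower and 13.1% higher by limma. Among the J segments that fell, Trbj1-1, Trbj1-6, Trbj2-1 and Trbj2-2 passed the filter only through WT, so their side was fixed in advance. All segments of the first J row had at most 4 reads in any KO library. Trbj1-2 had 80, 18 and 81 reads in WT and 0, 2 and 1 in KO, and fell by 5.17 on the log2 scale (adjusted p = 0.00241 by limma). Trbj1-3 had 106, 8 and 154 against 0, 0 and 1 (fell by 5.73), and Trbj1-1 had 5, 4 and 4 against none (at least 1.29-fold lower). Here WT 2 lay far below the other WT libraries. Trbj1-4 had 106, 3 and 143 reads against 0, 0 and 4, and Trbj1-6 had 74, 1 and 91 against none. Both passed the threshold (adjusted p = 0.0472 and 0.0440 by limma) and lost the call on leaving out any library but WT 2 (adjusted p from 0.0675 to 0.159) and without the filter (0.0913 and 0.0868). Trbj1-4 also lost it after rescaling to TPM (0.0885) and by voom (0.0569). Trbj1-5, with 121, 0 and 166 against 0, 0 and 1 reads, passed without WT 2 (adjusted p = 0.000111 by limma). Trbj1-7, with 65, 0 and 82 reads against none, did not pass the filter.

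In the second J row, Trbj2-1 had 14, 20 and 32 reads in WT and none in KO, at least 6.62-fold lower. Trbj2-2 had 35, 2 and 44 against none, at least 8.52-fold lower, and its call was lost without WT 1 or without any of the KO libraries (adjusted p from 0.0523 to 0.0643 by limma). The next segment, Trbj2-3, had 37, 0 and 47 reads in WT and 5, 5 and 0 in KO, and passed as lower only without WT 2 (−3.94). From Trbj2-4 on, all KO libraries had reads, and the groups overlapped for Trbj2-4, Trbj2-5 and Trbj2-6 but not for Trbj2-7. Trbj2-7, the last of the row, had 70, 13 and 101 reads in WT and 221, 208 and 113 in KO. It took 59.6%, 55.8% and 60.8% of the beta J reads of KO 1 to KO 3 and 8.79%, 16.7% and 9.58% of those of WT 1 to WT 3. The pseudogene Trbj2-6, next to it, had 30, 9 and 47 against 88, 75 and 33 reads. Neither Trbj2-7 (log2 fold change 1.67 ± 0.69, SE, adjusted p = 0.129 by limma) nor Trbj2-6 (1.09 ± 0.58, adjusted p = 0.227) passed the test. Trbj2-5, at 37, 0 and 34 against 40, 48 and 23 reads, had a log2 fold change of 1.74 with WT 2 and −0.12 without it.

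The C segments followed the same divide. Trbc1, at chr6:41538218-41539881, had 2073, 7656 and 2944 reads in WT and 6, 0 and 23 in KO libraries. Its FPKM was 179, 869 and 254 in WT and 0.43, 0 and 1.91 in KO, and it fell by 7.73 on the log2 scale (SE 0.68, adjusted p = 0.000672 by limma). Trbc2, at chr6:41546730-41548352, had 3321, 7620 and 3921 reads in WT and 10081, 7094 and 5165 in KO. Its level overlapped between the groups (log2 fold change 0.38 ± 0.57, SE, adjusted p = 0.671 by limma), and it was called higher in KO without WT 2 (0.87, adjusted p = 0.0318) and after rescaling to TPM (1.22, adjusted p = 0.0239). Trbc2 thus held 61.6%, 49.9% and 57.1% of the beta C reads in WT 1 to WT 3 and 99.9%, 100% and 99.6% in KO 1 to KO 3. The second cluster likewise held 30.0%, 56.4% and 31.6% of the beta J reads in WT and 100%, 99.5% and 96.2% in KO. Each share gave p = 0.1 in the exact permutation test (adjusted 0.15), the smallest possible. Trbc1 and Trbc2 are 83.1% identical with a longest shared run of 259 bases, and 35.1% of the 75-base windows of Trbc1 occur in Trbc2. How the authors treated reads that fit both genes is not given in the sources used here, so the split between them is uncertain in that measure.

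Read in order along the chromosome, 18 neighbouring segments from Trbv25 to Trbj2-2, over chr6:41221931-41543007, held 2907, 7795 and 3953 reads in WT and 6, 2 and 33 in KO libraries. The ends of that stretch, like those of the other summed stretches above, were set after the values were seen, so it is a description. Of its 18 segments, 15 had reads in a WT library and 6 in a KO library. The segment before it is Trbv24 and the segment after it is Trbj2-3.

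**Figure D3:**
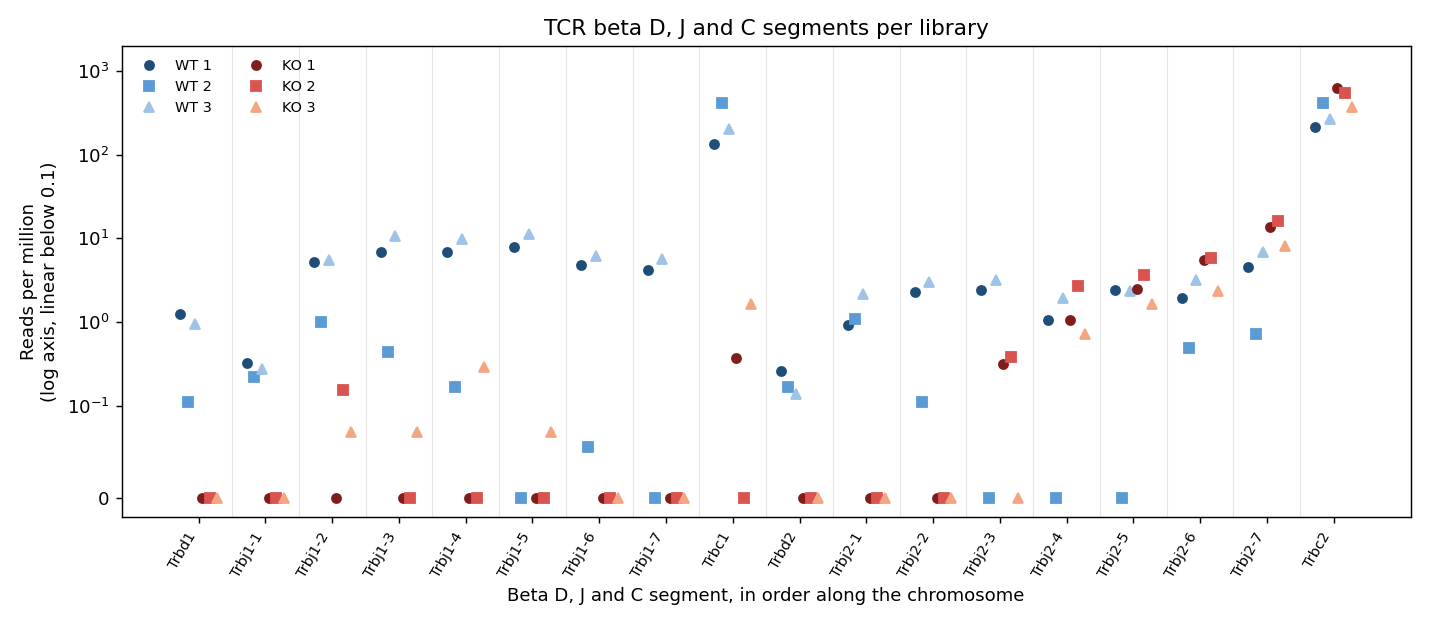
RPM (vertical axis, logarithmic above 0.1 and linear below) for each beta D, J and C segment in order along the chromosome, with one point per library. KO points lie at or near 0 from Trbd1 to Trbj2-2, Trbc1 included, and at or above the WT range for Trbj2-7, where KO libraries had 221, 208 and 113 reads.

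In the gamma locus the C segment with the largest log2 fold change was Tcrg-C3 and that with the smallest was Tcrg-C1, a difference that was not tested as such. Gamma chains pair with delta chains in the receptor of gamma delta T cells, and gamma genes can also be joined in cells that go on to make alpha beta receptors. The J segments are shown from the GENCODE vM21 annotation, each on its own strand, because they tell the clusters apart. Capitals mark the bases that differ from Trgj1 in an alignment.
Trgj1: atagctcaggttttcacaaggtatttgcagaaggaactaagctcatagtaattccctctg
Trgj2: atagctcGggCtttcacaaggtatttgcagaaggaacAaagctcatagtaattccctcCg
Trgj3: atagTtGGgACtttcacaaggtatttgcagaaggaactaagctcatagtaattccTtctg
Trgj4: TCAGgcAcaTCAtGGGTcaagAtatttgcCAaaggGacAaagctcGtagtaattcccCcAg
Trgj2 differs from Trgj1 at 4 bases and Trgj3 at 6, whereas Trgj4 has 20 capitals. The C segments are as close: Tcrg-C1, Tcrg-C2 and Tcrg-C3 are 96.1% to 97.3% identical to each other, and Tcrg-C4 67.3% to 72.7% to them. Between 4.17% and 11.8% of the 75-base windows of one of the first 3 occur in another, and no window of Tcrg-C4 does.

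The cluster of Tcrg-V3, Trgj3 and Tcrg-C3 was nearly silent in the WT libraries. Tcrg-C3, at chr13:19260884-19263528, had 7, 5 and 9 reads in WT and 474, 657 and 1675 in KO. Its FPKM was 0.70, 0.65 and 0.89 against 39.1, 64.2 and 160, a log2 fold change of 5.42 ± 0.50 (SE, adjusted p = 0.000842 by limma). Tcrg-V3, the V segment of this cluster, had 4, 0 and 5 reads in WT and 292, 435 and 1126 in KO (5.91 ± 0.57, adjusted p = 0.000987). Trgj3 had no reads in any WT library and 24, 17 and 67 in KO, at least 13.5-fold higher (adjusted p = 0.00120). No KO value of these 3 segments was near a WT value, and KO 3 was the highest library for each. Their calls held under all 13 alternatives, but the 3 segments passed the filter only through KO, so their side was fixed in advance. As a share of gamma C reads, Tcrg-C3 went from 0.55%, 0.25% and 0.36% in WT to 4.98%, 7.63% and 11.5% in KO (95% Wilson intervals up to 1.12% in WT and from 4.56% in KO).

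The cluster of Tcrg-C4 rose in its V and C segments. Tcrg-C4, the last C segment of the locus, had 319, 471 and 543 reads in WT and 2985, 3028 and 4147 in KO. Its log2 fold change was 2.66 ± 0.36 (SE, adjusted p = 0.00294 by limma, called under all 13 alternatives). Tcrg-V1 had 150, 1 and 237 reads in WT and 1317, 1415 and 1750 in KO (4.41 ± 1.28, adjusted p = 0.0471). That call was lost on leaving out WT 1 or any KO library (adjusted p from 0.0648 to 0.144 by limma), and without WT 2 the log2 fold change was 2.82 (adjusted p = 0.000620). It was also lost without the filter (0.0908), with a pseudocount of 0.1 (0.0922) and after rescaling to TPM (0.0592), so it held under 6 of 13 alternatives. Trgj4 had 10, 0 and 17 reads in WT and 30, 52 and 49 in KO, and passed only without WT 2 (1.52, adjusted p = 0.0163 by limma).

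Trgv2, Trgj2 and Tcrg-C2, which lie on the minus strand, rose as well. Tcrg-C2 had most gamma C reads in every library, with 484, 880 and 986 in WT and 4095, 3482 and 5688 in KO. Its log2 fold change was 2.26 ± 0.43 (SE, adjusted p = 0.0106 by limma), with the call lost without KO 3 (adjusted p = 0.0511). Trgv2 had most gamma V reads in every library, with 172, 11 and 397 in WT and 1615, 1466 and 2472 in KO (3.83 ± 1.02, adjusted p = 0.0352 by limma). Trgj2 had 15, 5 and 46 reads in WT and 153, 104 and 171 in KO (2.87 ± 0.66, adjusted p = 0.0206 by limma). The calls of Trgv2 and Trgj2 were lost on leaving out WT 1 or any KO library (adjusted p from 0.0695 to 0.124 and from 0.0632 to 0.0856 by limma), and without WT 2 both passed (2.63 and 2.25). Trgv2 also lost its call without the filter (0.0711) and with a pseudocount of 0.1 (0.0506). As a share of gamma C reads, Tcrg-C2 overlapped between the groups, at 40.3 ± 2.85% in WT and 40.8 ± 2.03% in KO (SD, n = 3, exact permutation p = 0.8).

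The first cluster had the smallest log2 fold change of the 4 C segments and held a smaller part of the gamma reads in KO. Tcrg-C1 had 474, 674 and 932 reads in WT and 1959, 1442 and 3055 in KO, with no overlap in FPKM (1.35 ± 0.42, SE, adjusted p = 0.0569 by limma, 0.0246 without WT 2 and 0.0204 after rescaling to TPM). Its share of gamma C reads was 36.0 ± 2.41% in WT and 19.4 ± 2.34% in KO (SD, n = 3). Tcrg-V4 had 107, 7 and 233 reads in WT and 442, 294 and 585 in KO (2.40 ± 0.96, SE, adjusted p = 0.122 by limma), and passed without WT 2 (1.27) or without WT 3 (3.23). Its share of gamma V reads was 28.6 ± 5.66% in WT and 9.55 ± 1.87% in KO. Trgj1 had 32, 0 and 66 reads against 72, 79 and 111, and overlapped in FPKM between the groups (adjusted p = 0.257 by limma). The falls in the shares of Tcrg-C1 and Tcrg-V4 were thus falls of a part while the reads of both segments were more numerous in KO.

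Tcrg-V7, the first V segment of the locus, was nearly silent in the WT libraries. It had 0, 0 and 1 reads in WT and 161, 137 and 387 in KO (log2 fold change 5.02 ± 0.43, SE, adjusted p = 0.000638 by limma, called under all 13 alternatives). It passed the filter only through KO, so its side was fixed in advance. The next segment, Tcrg-V4, had a smaller log2 fold change in the same direction (2.40), which did not pass the test. Tcrg-V5 and Tcrg-V6, beyond Tcrg-V4, went the other way at few reads, with 2, 1 and 4 and 4, 0 and 9 reads in WT and none in KO. Neither passed the filter on low values. Tcrg-V3, Trgv2 and Tcrg-V1 are 94.6% to 95.7% identical to each other, so the split between them depends on how reads that fit more than 1 of them were counted, which is not given in the sources used here. Tcrg-V7 is at most 51.3% identical to any other gamma V segment and shares no 75-base window with them.

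Gamma V segments were used no less evenly in the KO libraries than in the WT libraries. The effective number of gamma V segments was 3.03, 2.33 and 2.93 in WT and 3.15, 3.16 and 3.65 in KO. Shared use of gamma V segments was 69.0% to 92.2% between WT libraries, 52.0% to 85.8% between a WT and a KO library and 87.9% to 92.7% between KO libraries. WT 2 had only 20 gamma V reads, so its effective number and shared use are uncertain. Without WT 2, shared use between a WT and a KO library was 74.4% to 85.8%. For beta V the KO values of the effective number all lay below the WT values, whereas for gamma V they all lay above them (exact permutation p = 0.1 for each, adjusted 0.15). The groups' difference was −11.9 segments in beta and 0.56 in gamma, and the contrast between the loci was not tested.

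**Figure D4:**
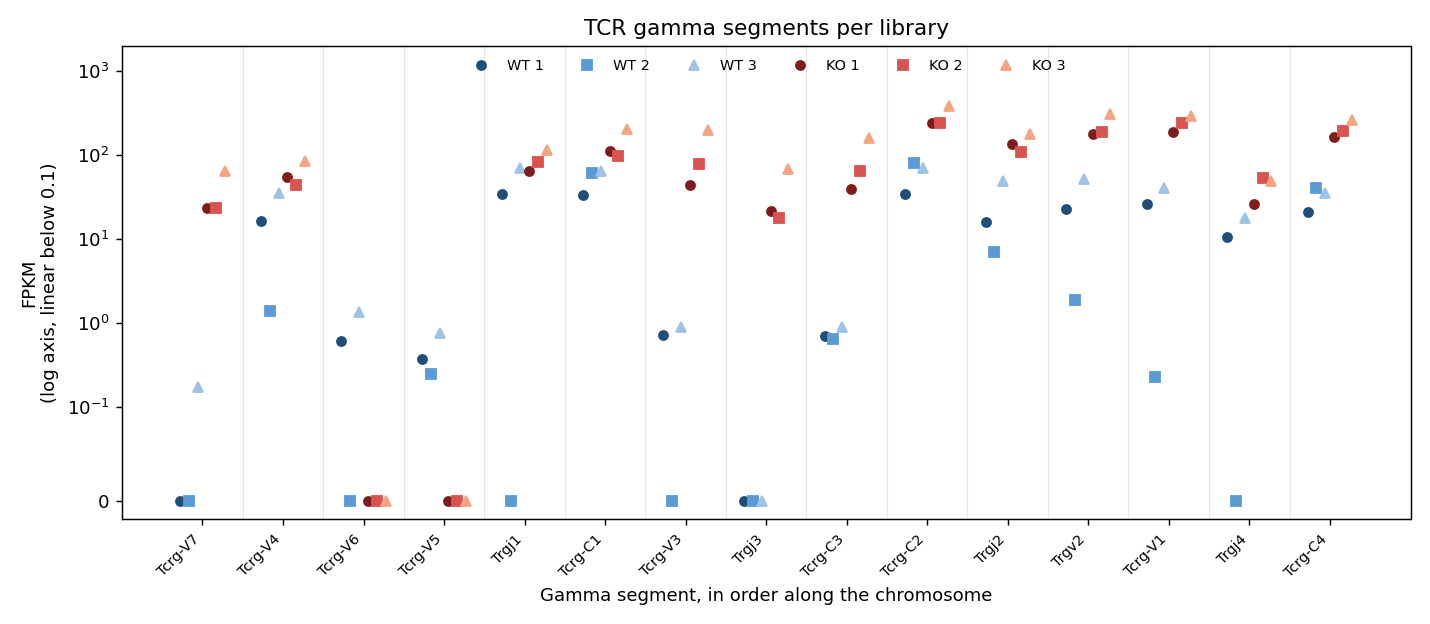
FPKM (vertical axis, logarithmic above 0.1 and linear below) of the 15 gamma segments in order along the chromosome, with one point per library. KO points lie above WT points for most segments, and for Tcrg-V7, Tcrg-V3, Trgj3 and Tcrg-C3 the WT points lie below 1 FPKM while the KO points lie between 18.0 and 198.

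Genes that make and carry the rearrangement were compared in the same fit, as a list of 30 recombination and receptor genes. All 30 were tested, of which 11 were higher in KO and 1 was lower, against 13.1% higher and 13.3% lower over all genes, with a median log2 fold change of 1.04 against 0.09 over all genes. The list was chosen with earlier results of these data known, so its count and median are a description. Rag1, which with Rag2 cuts the DNA at the segments, was at 0.07, 1.71 and 0 FPKM in WT and at 392, 457 and 338 FPKM in KO (log2 fold change 8.11 ± 0.43, SE, adjusted p = 0.000244 by limma). Rag2 was at 0, 1.09 and 0 FPKM in WT and at 9.52, 9.29 and 9.67 FPKM in KO (3.04 ± 0.34, adjusted p = 0.00161). Every KO library was above every WT library for both. Ptcra, the chain that pairs with a newly made beta chain, was listed at 0 in all WT libraries and at 161, 167 and 137 FPKM in KO (adjusted p = 0.000174 by limma). Dntt, which adds bases at the joins, was at 0.73, 26.6 and 0.12 FPKM in WT and at 86.7, 85.0 and 101 FPKM in KO (4.60 ± 1.15, adjusted p = 0.0284), and passed in 6 of 13 alternatives. The receptor gene Il7r was the 1 gene that fell, from 219, 73.8 and 227 to 16.8, 24.7 and 23.3 FPKM (by 2.80 on the log2 scale, adjusted p = 0.00757 by limma). Stat5a, a transcription factor downstream of JAK3, rose by 1.78 ± 0.26 on the log2 scale (SE, adjusted p = 0.00425), and Stat5b had a log2 fold change of 1.22 ± 0.40 (adjusted p = 0.0712).

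Of the markers of gamma delta T cells, the transcription factor Sox13 was at 1.19, 0.41 and 0.30 FPKM in WT and at 11.1, 12.0 and 26.3 FPKM in KO libraries (log2 fold change 3.35, adjusted p = 0.00203 by limma). Trdc, the constant segment of the delta chain, was at 1.94, 14.8 and 2.80 FPKM in WT and at 4.68, 3.42 and 7.09 FPKM in KO. It overlapped between the groups (log2 fold change 0.06 ± 0.66, SE, adjusted p = 0.956 by limma). Blk (log2 fold change −0.53, adjusted p = 0.791) and Cd163l1 (−1.10, adjusted p = 0.467) did not pass the test by limma either. Zbtb16, Il23r and Il17a did not pass the filter, with at most 0.72 FPKM in any library. The part of gamma delta T cells in the gamma segment results was not tested.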

How the data were processed

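Total RNA of 6 libraries was sequenced as paired-end reads. The authors deposited FPKM per gene, with the gene length and coordinates; the submitters' processing notes name HISAT2 (version 2.0.5), featureCounts (version 1.5.0-p3) and GRCm38/mm10. The strand setting, the treatment of reads that fit several genes and the scaling of the FPKM are not given in the sources used here. FPKM times gene length was a whole multiple of a step (within 0.01 reads) for 100% of values in every library, and this gave the reads. The coordinates of all 68 segments were identical to GENCODE vM21, the source of the sequences; 63 segments had a transcript of the deposited length.

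Genes that reached 1 FPKM in 3 or more of the 6 libraries were compared on log2(FPKM + 1) with limma 3.58.1 (lmFit, then eBayes with trend, two-sided) in R 4.3.3. The study itself used a model for counts. Class sums (RPM) and shares were compared by two-sided exact permutation tests of 3 against 3 libraries. Alternatives were a pseudocount of 0.1, no filter, TPM rescaling, median-of-ratios scaling, voom on recovered reads, eBayes without trend, a replicate block and leaving out each library. Sequences were aligned with Biopython 1.88 in Python 3.11.15. Other steps used SciPy 1.17.1, NumPy 2.4.6, pandas 2.3.3, Matplotlib 3.10.9 and the R package data.table (version 1.17.8). The model was tested on simulated data. At the threshold it recovered 42% of log2 changes of 2 and 83% of log2 changes of 4, with 2 false calls. A segment that did not pass can therefore still differ.

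Named were all gamma, D and C segments, beta V and J segments past the threshold or among the 3 with most reads of their class in a library, and the first and last V segment. Trbv30, Trbj1-7 and Trbj2-3 were named after their values were seen. The members and gene lists were chosen with earlier results of these data known. A result for 1 marker gene of gamma delta T cells, and the tally of that list, are not reported here.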

Additional observations from a re-analysis of the deposited data

How the results depend on the processing

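Leaving out each library in turn gave from 938 to 3584 genes called higher and from 996 to 3383 called lower over all genes (1754 and 1785 with all libraries), and from 5 to 12 gamma segments called higher (9 with all libraries). Both highest counts over all genes came without WT 2. Rescaling to TPM moved the median log2 fold change over the tested genes from 0.09 to 0.86. It called 1081 genes lower, and 67.8% of its calls were higher, against 49.6%. Without the filter, 1 gamma segment was called lower (Tcrg-V5), against 0. The log2 difference of the beta J sum ran from −1.51 to 0.38 (−0.33 with all libraries) and turned positive without WT 1 (0.15) or WT 3 (0.38), and that of the beta C sum ran from −0.31 to 0.31 (−0.04), positive without WT 2 (0.31) or KO 3 (0.18). The KO minus WT share of Tcrg-C2 was 0.53 percentage points, −0.55 on summed FPKM, and ran from −0.79 to 2.04 as libraries were left out, negative without WT 1 (−0.79) or KO 1 (−0.57). As libraries were left out, the log2 fold change ran from −2.79 to 0.15 for Trbv13-2 (positive without KO 2), from −1.46 to 1.17 for Trbv20 (negative without KO 1 or, at −0.17, without WT 2), and from −0.12 to 2.70 for Trbj2-5 (negative without WT 2). The cause was not tested.

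With the replicate number as a block, 1207 genes were called higher and 1469 lower, with 14 and 20 segments, as without it. Deviations of same-numbered libraries from their group means correlated at 0.10, 0.10 and −0.15, and those of WT 3 and KO 1 at 0.23. With 3 libraries per group, such values cannot decide whether same-numbered libraries share a batch. Short segments with few reads, near-identical segments and the state of WT 2 limit these values, and 3 libraries per group keep exact permutation tests at 0.1 or above.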
